A study of Mus musculus with 4 samples.

Results

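Activins and inhibins are secreted dimers of the TGF-beta family, and the 10 genes described here encode 4 of their beta subunits (Inhba, Inhbb, Inhbc and Inhbe), the extracellular binding proteins follistatin (Fst) and follistatin-like 3 (Fstl3), the type I receptors Acvr1 and Acvr1b, and the type II receptors Acvr2a and Acvr2b. They were chosen by symbol and all 10 were found, each once, among 21827 gene entries. Livers of untreated CD-1 mice, an outbred stock, aged 8 weeks were compared between males and females. RNA from 12 livers per sex was combined into 2 pools of 6 livers, so that the libraries, made from poly-A-enriched RNA with a strand-specific preparation, came from 2 male and 2 female pools. The table holds 1 value for each gene in each sex and does not separate the pools. The spread between pools could therefore not be computed, and levels, ratios and adjusted p-values below are the authors' own unless stated otherwise.

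In this system a beta subunit dimer is held by a type II receptor, which activates a type I receptor, and the type I receptor phosphorylates Smad proteins that enter the nucleus. Activin A is a dimer of the Inhba product and activin B of the Inhbb product. The Inhbc and Inhbe products are made mainly by hepatocytes, and the Inhbe product is known as a liver hormone that acts on fat tissue. Follistatin wraps around activins and blocks both receptor sites, and the liver is a known source of circulating follistatin. Inhibins need an alpha subunit, encoded by Inha. In a whole liver sample, fewer cells of a type and less RNA per cell cannot be told apart.

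Of the 10 genes, 3 differed between the sexes and 7 did not pass the test. Fst was higher in male liver, and the ligand subunit genes Inhbe and Inhbb were higher in female liver, at the authors' adjusted p under 0.05. None of the 4 receptor genes passed that threshold, and neither did Inhba, Inhbc or Fstl3. This makes 3 of 10 genes called, where 17.4% of the 13763 genes with a ratio between the sexes were called. In the male-higher direction it is 1 of 10, where 7.21% of those genes were called, and in the female-higher direction 2 of 10, where 10.2% were called. Restricted to genes whose log2 RPKM reached 1 in male or female liver, 2 of 7 members were called, where 17.2% of such genes were called, 8% male-higher and 9.19% female-higher. The median log2 ratio of the 10 genes was -0.07, and that of all compared genes was -0.02. Ratios are male over female liver throughout, so that a negative log2 ratio means a higher level in female liver.

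As a check of the sex labels, Xist, transcribed from the inactive X chromosome, had a log2 RPKM of -2.52 in male and 6.87 in female liver, and the Y-linked Ddx3y had 4.91 in male and -6.10 in female liver. Depth was inferred from the lowest levels in the table, which lie where 1 added read would put them. It came to 11241814 reads for male and 14719686 for female liver. All hepatocyte markers examined were abundant, with Alb at a log2 RPKM of 14.83 in male and 15.52 in female liver.

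**Figure D1:**
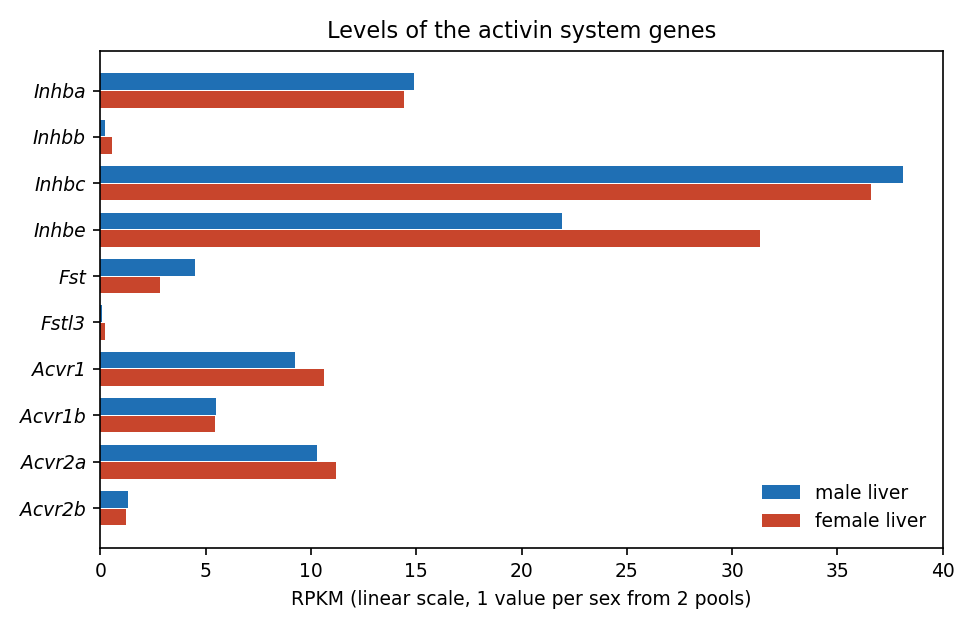
Level of each of the 10 genes in male liver (blue) and female liver (red), as RPKM on a linear scale starting at 0, with 1 value per sex from 2 pools and no error bar because pools are not separated. Inhbc, Inhbe and Inhba were the 3 highest in both sexes, while Inhbb and Fstl3 lay below 1 RPKM.

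The ligand subunit genes spanned the widest range of levels. RPKM, a level scaled to transcript length and to library depth, corrects for length, so levels of different genes can be set side by side. Inhbc, the activin beta-C subunit gene, stood at 38.1 RPKM in male and 36.6 RPKM in female liver. Inhbe, the beta-E subunit gene, followed with 21.9 RPKM in male and 31.3 RPKM in female liver. Inhba, the beta-A subunit gene, reached 14.9 RPKM in male and 14.4 RPKM in female liver. Inhbb, the beta-B subunit gene, was near the limit of detection, at 0.209 RPKM in male and 0.526 RPKM in female liver. The order of the 10 genes by level was the same in both sexes: Inhbc, Inhbe, Inhba, Acvr2a, Acvr1, Acvr1b, Fst, Acvr2b, Inhbb and Fstl3. Exact 95% Poisson intervals of the reads behind each level overlapped for Acvr2a and Acvr1 and for Inhbb and Fstl3 in both sexes, and for Acvr1b and Fst in male liver. The other neighbours in the order did not overlap by counting error, which leaves out differences between mice and pools.

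Inhbe differed between the sexes while its neighbour Inhbc did not pass the test. Both genes lie on the minus strand of chromosome 10 (mm9), Inhbe from 126786458 to 126788828 and Inhbc from 126793382 to 126807600, with 4553 bases between them and no other tabled gene in between. Inhbe was, by the authors' deposited table, 1.39-fold higher in female liver (log2 ratio -0.47, adjusted p = 0.0227). For Inhbc the authors' deposited table gives a log2 ratio of 0.09 with an adjusted p of 0.634. The level of Inhbe was 0.576 times that of Inhbc in male liver and 0.856 times that of Inhbc in female liver. Of the summed RPKM of the 4 ligand genes, Inhbe made up 29.2% in male and 37.8% in female liver, and Inhbc 50.7% in male and 44.2% in female liver. Whether the pair differs in its sex ratio was not tested, because no spread between pools is available.

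The Inhbe levels rest on more reads than those of Fst or Inhbb. Over its coding length of 1050 bases alone, which is shorter than the transcript, the levels correspond to 258 reads in male and 483 in female liver. The ratio of those reads per depth, female over male, was 1.43, with an exact 95% interval of 1.23 to 1.67 for counting error alone. The corresponding male over female ratio for Inhbc was 1.04 (0.947 to 1.14), from 796 reads in male and 1001 in female liver over an accession-matched length of 1859 bases. On the far side of Inhbe from Inhbc, Gli1, a transcription factor of the Hedgehog pathway, lay at a log2 RPKM of -5.37 in male and -3.76 in female liver, and has no ratio. Beyond Inhbc, R3hdm2 had a log2 ratio of -0.27 in the authors' deposited table and was not called (adjusted p = 0.168).

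The 250 bases before the start of each of these neighbours are shown because the genes share a strand and a locus but differ in the call. They are RefSeq promoters on GRCm38.p6, not mm9, on the minus strand: chr10:127351849-127352098 for Inhbe and chr10:127370549-127370798 for Inhbc. Capitals mark matches to TTCNNNGAA, the core recognised by STAT5, or to TGATGNAA, the core of the C/EBP-ATF response element, on either strand.
Inhbe: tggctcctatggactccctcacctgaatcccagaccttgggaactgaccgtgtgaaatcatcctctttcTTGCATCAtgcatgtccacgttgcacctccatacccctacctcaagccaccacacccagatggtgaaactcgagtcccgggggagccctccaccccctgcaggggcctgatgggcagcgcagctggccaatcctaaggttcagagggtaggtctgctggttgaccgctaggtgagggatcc
Inhbc: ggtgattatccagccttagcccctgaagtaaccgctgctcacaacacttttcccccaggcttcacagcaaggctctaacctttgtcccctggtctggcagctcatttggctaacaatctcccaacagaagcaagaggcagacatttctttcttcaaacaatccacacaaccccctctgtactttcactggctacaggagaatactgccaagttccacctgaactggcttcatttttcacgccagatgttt

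The Inhbe window held 1 match, TTGCATCA, on the strand opposite to the motif as written, beginning 181 bases before the start, and the Inhbc window held none. Windows were available for 9 of the 10 genes, all but Fst, and this was the single match to either motif in the 9. Over all 32851 promoter windows of the same length, 3.45% held a match to TGATGNAA and 7.02% held a match to TTCNNNGAA. Both motifs were chosen with the sequences and the sex ratios in view, and a match is a description of letters, not of binding.

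Inhbb had the largest ratio of the 3 called genes and the thinnest evidence. It lies on the minus strand of chromosome 1 (mm9, 121312042 to 121318825). Its log2 RPKM was -2.26 in male and -0.93 in female liver, and it was, by the authors' deposited table, 2.74-fold higher in female liver (log2 ratio -1.45, adjusted p = 0.0219). Over an accession-matched length of 4255 bases this corresponds to 9 reads in male and 32 reads in female liver. The ratio of those reads per depth, female over male, was 2.72, with an exact 95% counting interval of 1.27 to 6.47. Inhbb made up 0.278% of the summed ligand RPKM in male liver and 0.635% in female liver. Its tabled neighbours Gli2 and Ralb, with log2 ratios of 0.96 and -0.23 in the authors' deposited table, were not called.

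Inhba, on the plus strand of chromosome 13 (mm9, 16106308 to 16119044), was not called. Its log2 ratio in the authors' deposited table was 0.13 (adjusted p = 0.521). From 256 reads in male and 323 in female liver, over 1529 bases, the ratio of reads per depth was 1.04, with a counting interval of 0.877 to 1.23. Inha, the alpha subunit gene that an inhibin requires, was near the limit of detection, at 0.182 RPKM in male and 0.186 RPKM in female liver. Inha was named for this role with its values known.

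Both female-higher ligand genes have adjusted p-values just below 0.026. The table gives that same value of 0.026 to every gene with no read in either sex, where it cannot stand for a difference. Neither was called at an adjusted p under 0.01. Genes called in the lists below include Atoh8 and Junb, with larger authors' adjusted p-values of 0.0274 and 0.0321. The Kupffer cell markers Vsig4 and Clec4f, at 0.0294 and 0.0346, and Rnf126 beside Fstl3, at 0.0395, also lie above 0.026.

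**Figure D2:**
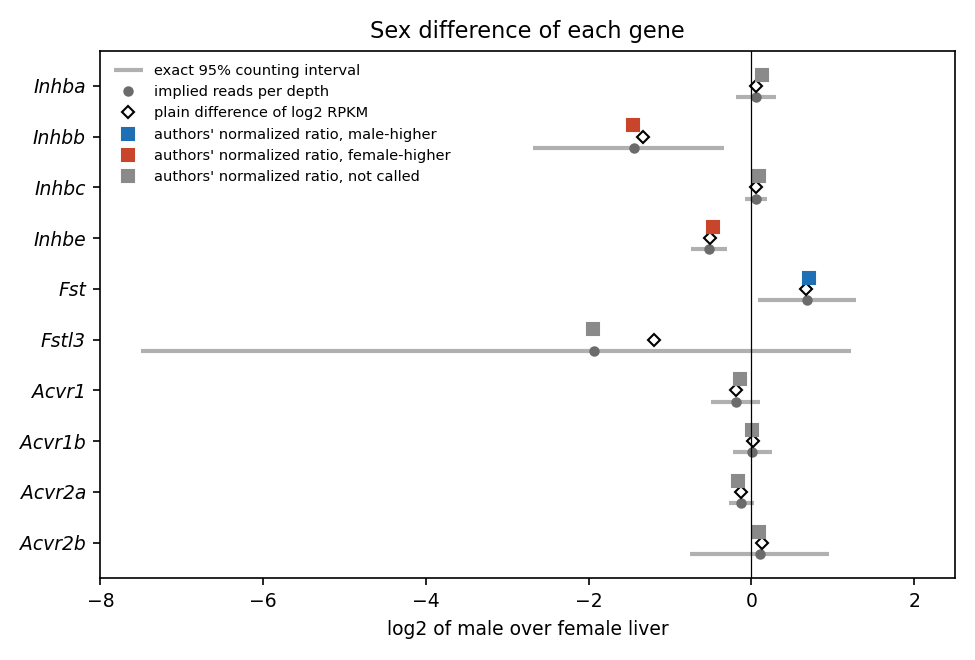
Sex difference of each gene as log2 of male over female liver. Squares are the authors' normalized ratio coloured by call (blue male-higher, red female-higher, grey not called), diamonds the plain difference of log2 RPKM, and dots the ratio of implied reads with its exact 95% counting interval (horizontal bars). The intervals of Fst, Inhbe and Inhbb do not reach 0, whereas that of Fstl3, with 1 read in male and 5 in female liver, spans most of the axis.

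Of the binding proteins, Fst was the only one called. It lies on the minus strand of chromosome 13 (mm9, 115242470 to 115248938). Fst stood at 4.49 RPKM in male and 2.82 RPKM in female liver. It was, by the authors' deposited table, 1.64-fold higher in male liver (log2 ratio 0.71, adjusted p = 0.00802). It was the single member that also passed an adjusted p under 0.01, where 10.2% of all compared genes did, 4.16% male-higher and 6.05% female-higher. Over an accession-matched length of 1113 bases the levels correspond to 55 reads in male and 45 in female liver. The ratio of those reads per depth was 1.60, with an exact 95% counting interval of 1.06 to 2.43. Other Fst transcripts are longer, and the reads would then be more and the interval narrower. By size of ratio Fst ranked 2739 among 13763 compared genes, so that 80.1% of them had a smaller ratio in either direction.

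Follistatin binds activin A tightly, so the level of Inhba is set beside that of Fst. The RPKM of Inhba was 3.33 times that of Fst in male liver and 5.10 times that of Fst in female liver. Whether this proportion differs between the sexes was not tested, and Inhba itself was not called. Ndufs4, the tabled gene on 1 side of Fst, had a log2 ratio of 0.24 in the authors' deposited table and was not called (adjusted p = 0.23), and the gene on the other side, 4930544M13Rik, had no read in either sex.

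Fstl3, which binds activins and myostatin (chromosome 10, plus strand, mm9, 79240019 to 79245375), was barely detected. Its log2 RPKM of -3.46 in male and -2.26 in female liver corresponds to 1 read in male and 5 reads in female liver over 1955 bases. The authors' deposited table gives a log2 ratio of -1.95 (adjusted p = 0.691), while the plain difference of the levels, which contain the added read, was -1.20. The male over female ratio of reads per depth was 0.262 with a counting interval of 0.00554 to 2.34, so a sex difference was not detectable at this depth. Fstl3 overlaps Prss57 on the opposite strand, a gene with no read in either sex.

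None of the receptor genes was called, and the largest of their differences in the authors' deposited table was 1.12-fold. Acvr2a, a type II receptor for activins, had 10.3 RPKM in male and 11.2 RPKM in female liver. Acvr1, a type I receptor that also serves bone morphogenetic proteins, had 9.23 RPKM in male and 10.6 RPKM in female liver. Acvr1b, the main type I receptor of activins, had 5.51 RPKM in male and 5.45 RPKM in female liver. Acvr2b, the second type II receptor, had 1.32 RPKM in male and 1.21 RPKM in female liver. In mm9, Acvr2a lies on chromosome 2 from 48669629 to 48758784 and Acvr1 on the same chromosome from 58241055 to 58368683. Acvr1b lies on chromosome 15 from 101004556 to 101043032, and Acvr2b on chromosome 9 from 119311562 to 119342636. The log2 ratios of these 4 genes in the authors' deposited table ran from -0.17 for Acvr2a to 0.09 for Acvr2b, and the smallest adjusted p-value among them was 0.408.

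For the receptors, intervals for counting error alone, without the variation between mice or pools, are the least uncertainty of each ratio. The 95% interval of the male over female ratio of reads per depth was 0.83 to 1.02 for Acvr2a and 0.858 to 1.19 for Acvr1b. For Acvr1 it was 0.712 to 1.08, over its coding length. The interval of Acvr2b was wider, 0.592 to 1.94, since its coding length held 23 reads in male and 28 in female liver. Summed over the 4 genes, receptor RPKM was 26.3 in male and 28.4 in female liver, against a ligand sum of 75.2 in male and 82.8 in female liver. Acvr2a overlaps Orc4 at its end and Acvr1 overlaps Gm17409, both on the opposite strand. Whether strand was used in counting is not stated in the labels or headers.

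**Figure D3:**
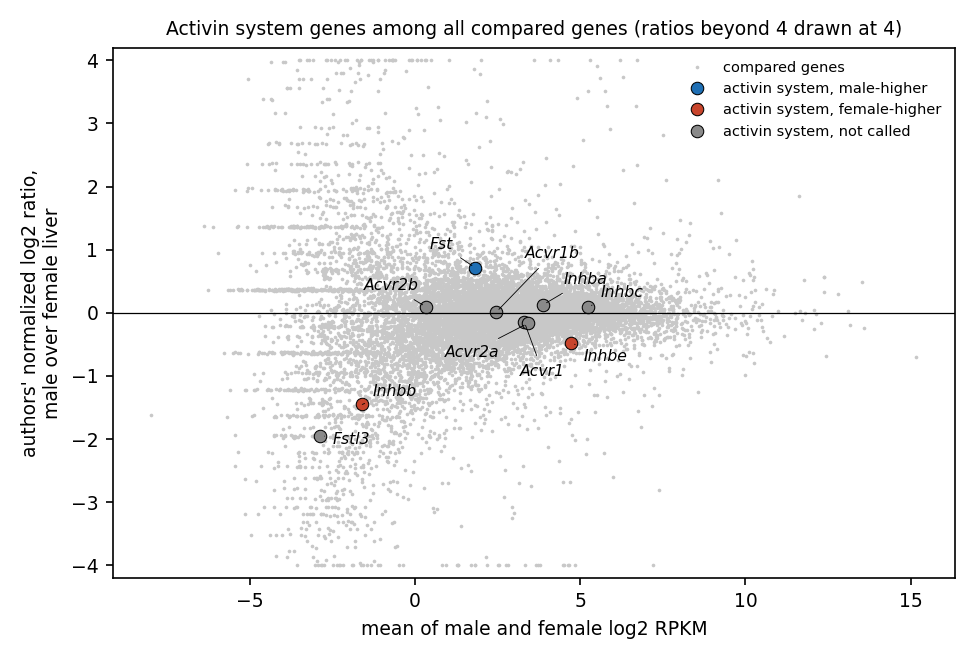
The authors' normalized log2 ratio (male over female liver) against the mean log2 RPKM for all 13763 compared genes (small grey dots; genes without a level are not drawn, and ratios beyond 4 are drawn at 4), with the 10 genes as large dots coloured by call. Inhbb and Fstl3 sit at low levels where grey dots spread widely, and Inhbe sits at a high level where the spread is narrow. By size of ratio Inhbe ranked 4188 among the compared genes of all levels, 69.5% of which had a smaller ratio in either direction.

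Beyond the 10 genes, 98 others of the TGF-beta family pathway were listed and 97 were found (Gdf1 was not found). Of the 76 with a ratio, 4 were male-higher, 14 female-higher and 58 not called. That is 23.7% called, beside 17.4% of all compared genes. Their median log2 ratio was -0.08, beside -0.02 over all compared genes.

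Few receptor genes were compared, so a count of 0 says little beside the 17.4% called among all compared genes. Of 6 compared type I receptor genes, Acvr1 and Acvr1b included, none passed, and Bmpr1a, a receptor of bone morphogenetic proteins, had the highest level at 11.9 RPKM in male and 12.3 RPKM in female liver. None of 5 type II receptor genes passed, among them Bmpr2 with 5.60 RPKM in male and 6.35 RPKM in female liver. Acvr1c, the type I receptor through which the Inhbe product is known to act on fat cells, was near the limit of detection in liver, at 0.0591 RPKM in male and 0.0451 RPKM in female liver (named for this role with its values known). None of 7 coreceptor and accessory genes was called, with Hfe2 (hemojuvelin), a coreceptor in iron control, at 37.8 RPKM in male and 35.8 RPKM in female liver, and Eng (endoglin), an endothelial coreceptor, at a log2 RPKM of 3.90 in male and 4.09 in female liver.

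Other ligands of the family differed in both directions. Of 15 genes compared in their list, 1 was male-higher and 4 were female-higher, beside 7.21% and 10.2% of all compared genes. The list also holds Bmp1, which encodes a protease and no ligand and was not called. At an adjusted p under 0.01 the calls were 3 in place of 5, without Gdf2 and Gdf15, beside 10.2% of all compared genes. Bmp4 had a log2 RPKM of 1.32 in male and 0.08 in female liver and was, by the authors' deposited table, 2.39-fold higher in male liver (adjusted p = 0.000929). Bmp10, a circulating ligand of endothelial receptors, had 0.743 RPKM in male and 2.11 RPKM in female liver, and the authors' deposited table puts its female excess at 3.01-fold (adjusted p = 0.00737). Gdf2, which encodes BMP9 and is the other such ligand, had 5.42 RPKM in male and 7.64 RPKM in female liver (adjusted p = 0.0111 in the authors' deposited table). By the authors' deposited table Bmp5 was 1.66-fold and Gdf15, a stress-induced hormone gene, 2.44-fold higher in female liver.

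Antagonists went both ways as well. Of 13 genes compared in their list, 2 (Fst included) were male-higher and 3 female-higher, beside 7.21% and 10.2% of all compared genes. The list also holds Ltbp1, Ltbp3 and Lrrc32, which bind or present latent TGF-beta and are no antagonists of the follistatin kind, and none of these 3 was called. Among genes reaching a log2 RPKM of 1 in either sex, 3 were called in place of 5. That filter also leaves out genes of the list that were not called, and 17.2% of all genes at that level were called. Fstl1, a more distant relative of follistatin, had 2.88 RPKM in male and 5.02 RPKM in female liver, the direction opposite to Fst (1.80-fold in the authors' deposited table, adjusted p = 0.000591). Bmper and Chrdl1, which bind bone morphogenetic proteins, were, by the authors' deposited table, 3.81-fold and 5.66-fold higher in female liver. Chrdl1 lay at a log2 RPKM of -3.19 in male and -0.95 in female liver, close to the limit of detection in male liver.

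Inside the cell, 1 of 8 Smad genes was called (12.5%), beside 17.4% of all compared genes. The 2 further lists below also hold 1 called gene each, which says little beside that 17.4%. Smad7, an inhibitory Smad that activin and TGF-beta signalling induce, had 3.32 RPKM in male and 5.17 RPKM in female liver and was, by the authors' deposited table, 1.58-fold higher in female liver (adjusted p = 0.00729). Among 13 Smad cofactors and regulators, 1 was called (7.69%). Zfyve9, which anchors Smad2 and Smad3 at the receptor, was, by the authors' deposited table, 1.44-fold higher in male liver (adjusted p = 0.0106). Of 5 proprotein convertases, which cleave precursors of this family, 1 was called (20%). Pcsk5 was, by the authors' deposited table, 2.05-fold higher in female liver (adjusted p = 2.73e-06). Furin, the most abundant of these 5, had a log2 ratio of 0.30 in the authors' deposited table and was not called (adjusted p = 0.114).

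Smad target genes had 6 female-higher and 2 male-higher members among 15 compared, beside 10.2% female-higher and 7.21% male-higher over all compared genes. At an adjusted p under 0.01 this was 4 female-higher and 1 male-higher, without Tgfbi, Atoh8 and Junb. Over all compared genes 6.05% were female-higher and 4.16% male-higher at that threshold. The median log2 ratio of the target genes was -0.19, and -0.53 among those reaching a log2 RPKM of 1 in either sex. The same filter moved the median of the other ligands from -0.27 to -0.50. It changed the sign for the antagonists (-0.10 to 0.40), type II receptors (0.09 to -0.15) and Smad cofactors and regulators (-0.05 to 0.09). Hamp, the hepcidin gene, which bone morphogenetic proteins induce in hepatocytes and which activin B can induce, had a log2 RPKM of 9.96 in male and 10.59 in female liver (1.74-fold, adjusted p = 2.17e-05 in the authors' deposited table). Id3, an inhibitor of differentiation, had 27.1 RPKM in male and 40.7 RPKM in female liver (adjusted p = 0.00331 in the authors' deposited table). Cdkn1a, which encodes the cell cycle inhibitor p21, had 3.26 RPKM in male and 6.42 RPKM in female liver (adjusted p = 0.000312 in the authors' deposited table). Smad7 was also among the female-higher targets, and Fst among the male-higher ones. These genes respond to other inputs too, and the list was not tested as a set.

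**Figure D4:**
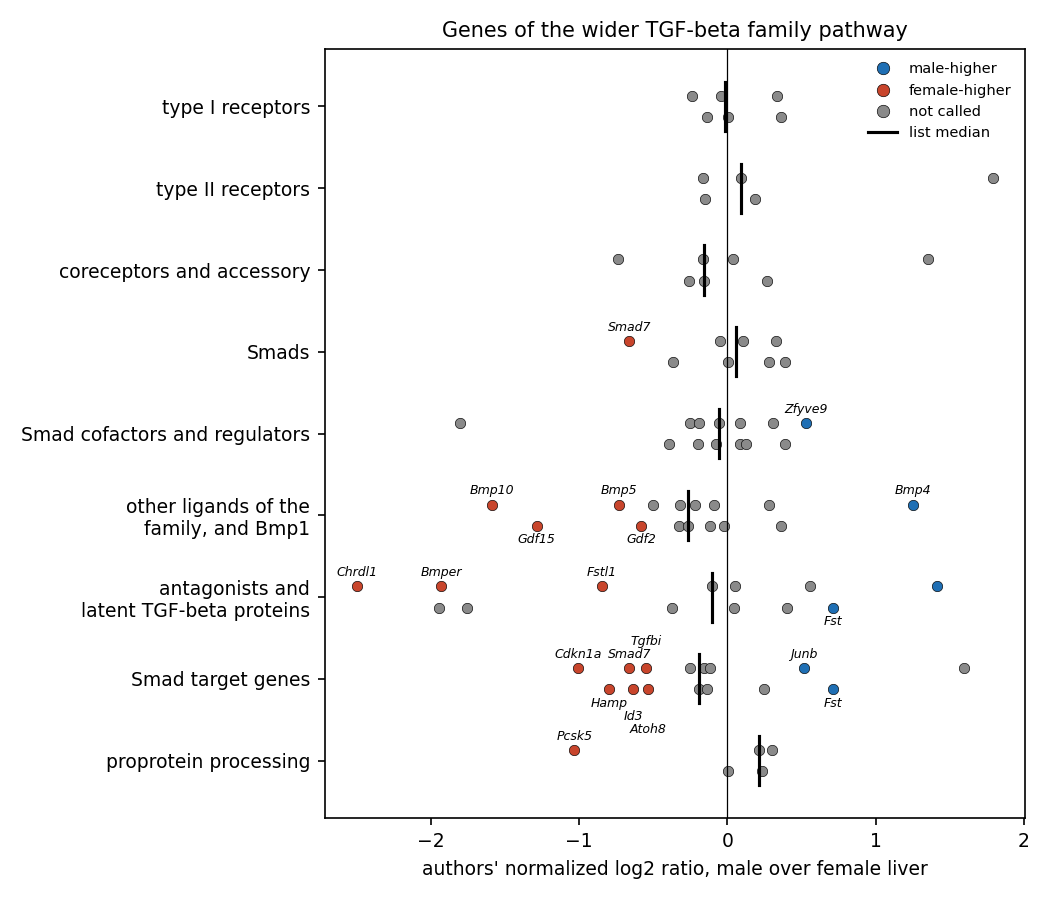
The authors' normalized log2 ratio (male over female liver) of each compared gene in 9 lists of the wider pathway, coloured by call, with called genes named, except 1 male-higher antagonist, and the list median as a black bar (vertical offsets only separate the points). The antagonist list includes 3 latent TGF-beta proteins and the ligand list includes the protease gene Bmp1. Receptor and coreceptor lists hold no called gene, while the 8 called Smad targets are 6 female-higher and 2 male-higher.

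Some markers of liver cell types also differed by sex and are given beside the calls. Over all compared genes, 10.2% were female-higher and 7.21% male-higher, and in lists this short 1 called marker says little beside these shares. Of 8 hepatic stellate cell markers, 5 were female-higher and none male-higher, with a median log2 ratio of -0.56 and a summed level of 117 RPKM in male and 160 RPKM in female liver. Of 6 Kupffer cell markers, 4 were female-higher and none male-higher, with a median of -0.44 and a sum of 139 RPKM in male and 177 RPKM in female liver. At an adjusted p under 0.01, 1 Kupffer marker (Marco) and 4 stellate markers remained female-higher, where 6.05% of all compared genes were. Endothelial markers had 1 female-higher gene of 6 and a median of -0.27, with sums of 105 RPKM in male and 121 RPKM in female liver. Hepatocyte markers had 1 gene called in each direction of 6 and a median of -0.20. Their sum, mostly from Alb, was also higher in female liver, at 4.25e+04 RPKM in male and 5.89e+04 RPKM in female liver. The 5 cholangiocyte markers had a median of -0.23, with Spp1 male-higher and Sox9 female-higher. Their sum, mostly from Spp1, went the other way, at 46.5 RPKM in male and 31.5 RPKM in female liver. The 6 lymphocyte markers had a median of 0.21, but the single called one, Nkg7, was female-higher, at 0.109 RPKM in male and 1.67 RPKM in female liver (adjusted p = 9.19e-05 in the authors' deposited table). Of 2 erythroid markers compared, Alas2 was male-higher, with 86.2 RPKM in male and 13.4 RPKM in female liver (6.67-fold in the authors' deposited table, adjusted p = 2.59e-38), and Slc4a1, at 0.203 RPKM in male and 0.139 RPKM in female liver, was not called. Every listed stellate, Kupffer, endothelial, cholangiocyte and lymphocyte marker was compared. The part of cell makeup in the ratios of the activin system genes, and in those of the ligands, antagonists and targets above, was not tested.

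**Figure D5:**
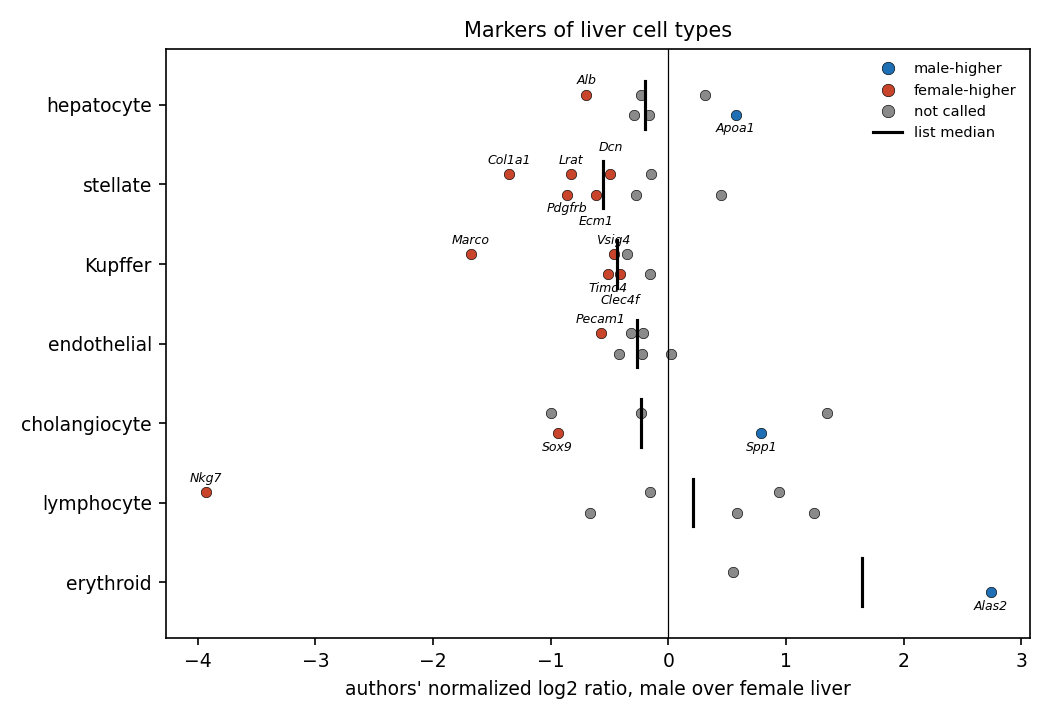
The authors' normalized log2 ratio (male over female liver) of markers of 7 liver cell types, coloured by call, with called genes named and the list median as a black bar (vertical offsets only separate the points). Stellate and Kupffer markers lie mostly on the female side, with medians of -0.56 and -0.44.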

How the data were processed

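Poly-A-enriched, strand-specific RNA of 2 male and 2 female liver pools was sequenced, per the labels' protocols. Bowtie, edgeR and mm9 are named without roles or versions, per the submitters' processing notes. The deposited table holds, per the file headers, the authors' log2 RPKM per sex, their normalized log2 ratio (male over female), the linear ratio, a signed fold change as a score, and an adjusted p-value adjusted by a method that is not given. Pools are not separated, so no gene was tested anew and no pairing of pools could be examined. Calls were made where the authors' adjusted p-value was under 0.05, in the direction of their normalized ratio.

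Genes at the floor in both sexes (6590), without a level (14) or above the floor in 1 sex with a ratio set to 1 (1460, whole multiples within 0.3%) were left out, which leaves 13763. Depth was taken from 1050 olfactory receptor genes at the floor, as 1 added read over their span. Reads per member used the GENCODE vM21 transcript matched by accession where it fits the mm9 span (7 genes), and otherwise the coding length (3 genes), so they are approximate. Intervals are exact (Clopper-Pearson for ratios, Poisson for levels) and cover counting error alone. Promoters are RefSeq sequences on GRCm38.p6. Functions were run on simulated data with p-values set in advance and the same floor of 1 added read. Such a run checks the code and cannot check these assumptions. Members and lists were chosen with earlier results of these data known. Named were all members, up to 6 called genes per list (for more, the 4 largest ratios and the 2 highest levels), the 2 most abundant where none was called, and tabled neighbours of called members. A called gene in the antagonist list is counted in its list but not reported by name here. Adgre1 was matched through its older symbol Emr1. Python 3.11.15, pandas 2.3.3 and SciPy 1.17.1 were used.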

Additional observations from a re-analysis of the deposited data

How the results depend on the processing

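With a call at an adjusted p under 0.01, 1 member was called in place of 3: Fst remained, and 0 were female-higher. These are the authors' p-values, given in adjusted form only, so there is no count at an unadjusted threshold. With genes required to reach a log2 RPKM of 1 in either sex, 1 member was called female-higher (Inhbe), since Inhbb lies below that level. Under the same stricter p, 2 of 76 wider pathway genes with a ratio were male-higher in place of 4. In the other direction, 10 of these 76 stayed female-higher in place of 14. For comparison, the stricter p called 4.16% of all 13763 genes with a ratio male-higher and 6.05% female-higher. By the plain difference of log2 RPKM the cholangiocyte marker median was -0.13 in place of -0.23. All 10 members kept the sign of their ratio by the plain difference and by implied reads. Leaving out single pools was not run, because the table does not separate them. No paired analysis was possible because the table holds 1 value per sex. Depth limits Fstl3 and Inhbb most, at 1 and 9 reads in male liver.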

Other observations

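Each of 3 ligand genes has a Gli gene, encoding a transcription factor of the Hedgehog pathway, as its tabled neighbour on 1 side, a pattern noticed while the neighbours were listed. Inhbe lies 7812 bases from Gli1 on chromosome 10, Inhba 299383 bases from Gli3 on chromosome 13 and Inhbb 361845 bases from Gli2 on chromosome 1 (mm9). The Gli genes were far lower than Inhbe and Inhba in both sexes: Gli3 had a log2 RPKM of -2.17 in male and -2.08 in female liver and Gli2 had -4.22 in male and -5.03 in female liver. Gli2 and Gli3 were not called, and Gli1, which has no ratio, could not be called.

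The gene next to Fstl3 on its other side, Rnf126, which encodes a ubiquitin ligase and was singled out after its values were seen, was male-higher in the authors' deposited table (log2 ratio 0.48, adjusted p = 0.0395). Its log2 RPKM was 3.66 in male and 3.17 in female liver.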
